A study of Homo sapiens with 4 samples.

Results

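The MYC, MAX and MXD network is a set of basic helix-loop-helix leucine zipper transcription factors. It was taken here as 10 genes, MYC, MYCN, MYCL, MAX, MXD1, MXD3, MXD4, MXI1, MNT and MLX, chosen by symbol, and the rows of the count table whose Ensembl identifier belongs to one of them were its members. All 10 genes were found among the 58037 genes of the table, and 9 of the 10 had enough reads to be tested. Gene counts were measured by RNA-Seq in OCI-AML3, an established human acute myeloid leukemia cell line that carries a heterozygous NPM1 mutation, with DNMT3A and NRAS mutations shared by every library. Cells were harvested 3 days (72 h) after transfection with sgNeg, the control guide, or with sgNPM1A, a guide directed at the mutant NPM1 allele (mtNPM1 KO), with 2 libraries per condition and 4 in all. The sgNPM1A cells were a transfected pool and not a clone, so that edited and unedited cells are read together, and in such bulk RNA fewer cells of a type and less RNA per cell cannot be told apart. The question was how the MYC proteins moved against their MXD and MNT antagonists when mutant NPM1 was targeted.

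MAX is the shared partner of the network. MYC, MYCN and MYCL dimerize with MAX, bind the E-box CACGTG and recruit coactivators to genes of growth and proliferation, whereas MXD1, MXI1 (also called MXD2), MXD3, MXD4 and MNT dimerize with MAX on the same motif and recruit SIN3 and histone deacetylase corepressors. MXD proteins are known to rise as hematopoietic precursors mature while MYC declines, and MLX links the network to the glucose-sensing factors MLXIP and MLXIPL.

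Total counts per library lay between 25069484 and 28276391. A floor of 3 counts, below which a value is not told from 0, was worth 0.106 to 0.120 CPM (counts scaled to library size) and covers counting error only. NPM1 itself, whose counts sum both alleles, had 1319 and 1385 CPM with sgNeg and 1189 and 1132 CPM with sgNPM1A. Its log2 fold change was -0.22 (SE 0.07, adjusted p = 0.0360). All values in CPM other than the floor are TMM-normalized. The p-values are from edgeR's quasi-likelihood test with Benjamini-Hochberg adjustment over the 15718 tested genes. A gene was called when its adjusted p was under 0.05 and its fold change at least 1.25. The labels number the libraries as replicates, and the paper's legend of the 3-day RNA-Seq heatmap names biological replicates. Neither says that the libraries came from separate cultures, so the p-values measure the spread between these libraries. With 2 libraries a condition, the smallest two-sided p that exact permutation allows is 0.333.

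The labelled cell type was checked against its markers. CD33 lay between 81.4 and 90.1 CPM, CEBPA between 270.0 and 285 CPM and SPI1 between 452 and 676 CPM, all genes of the myeloid lineage. MS4A1, CD3E, CD3D, HBB, EPCAM, KRT19 and ALB, which define other lineages, were at 0 counts in every library.

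MYC was lower and MYCL higher with mtNPM1 KO, and of the 9 tested members only MYCL passed both thresholds. MYCL was 1.54-fold higher, and 0 members were called lower by edgeR, DESeq2 or limma-trend, while at an unadjusted p under 0.05 in edgeR 2 members were higher and 3 lower. At an adjusted p under 0.05 alone, MYC was the 1 member lower. Called genes were 20.8% of all tested genes, 10.5% higher and 10.3% lower, so that 1 of 9 is no more than the background. In 8 of the 9 members the libraries of the conditions did not overlap, the exception being MXI1, and 63.1% of all tested genes showed such a separation. The median log2 fold change was -0.09 over the 9 members and 0.00 over all tested genes, and 6 of the 9 had negative and 3 positive values.

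**Figure D1:**
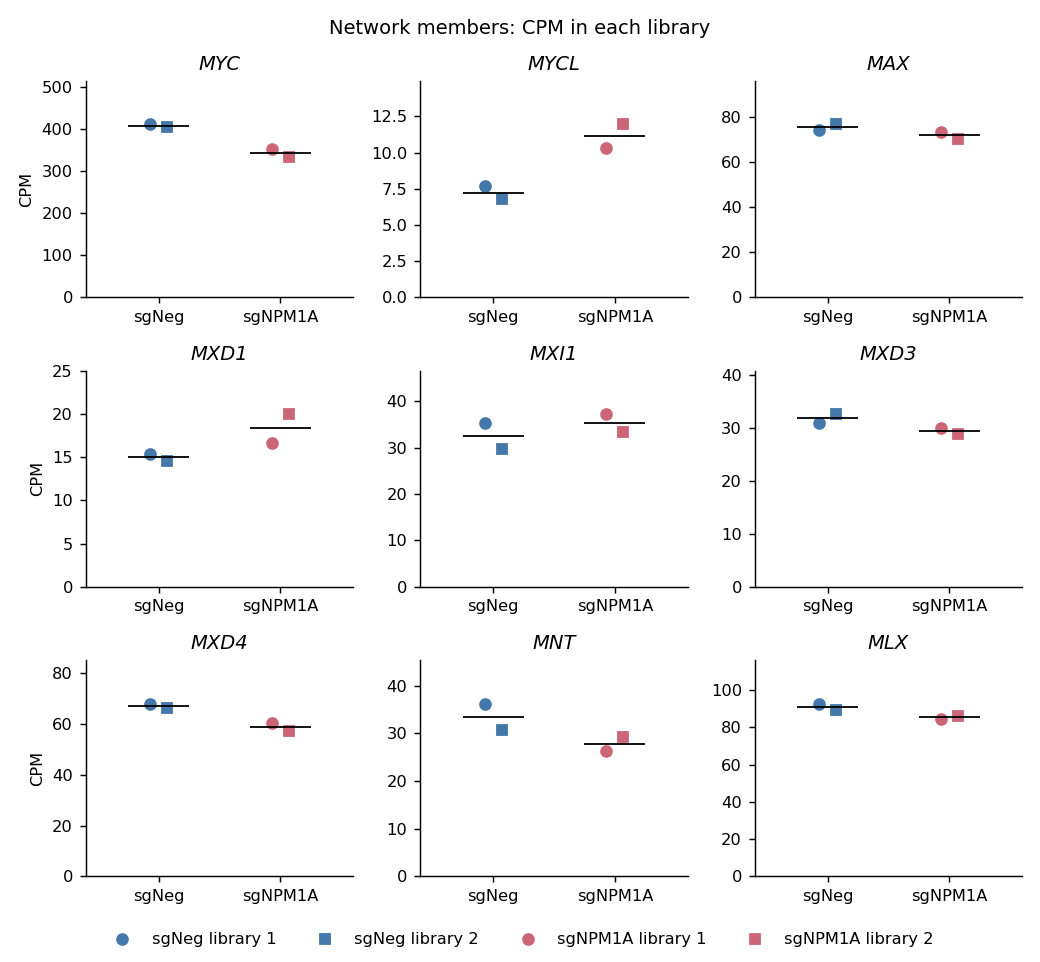
CPM of the 9 tested members in each library, with a linear axis from 0 in every panel, circles for library 1, squares for library 2 and a bar at the mean of the 2 libraries of a condition. MYC lies at 403 and above with sgNeg and at 352 and below with sgNPM1A, MYCL lies the other way, and only in MXI1 do the conditions overlap.

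Among the MYC proteins, MYC was by far the most abundant. MYC, on chromosome 8 of GRCh38 from 127735434 to 127742951, had 410.4 and 403 CPM in the sgNeg libraries and 352 and 332 CPM in the sgNPM1A libraries. Both sgNPM1A libraries were below both sgNeg libraries, with means of 407 ± 4.99 and 342 ± 14.0 CPM (SD, n = 2 libraries per condition). The log2 fold change of MYC was -0.25 (SE 0.07, 95% interval -0.40 to -0.11, adjusted p = 0.0159), a 0.840-fold level, and did not reach the fold threshold. A change of this size or larger was found in 44.8% of all tested genes. With the replicate number as a block the adjusted p of MYC was 0.0716, without sgNPM1A replicate 1 it was 0.102 and without sgNPM1A replicate 2 it was 0.303, the log2 fold change lying between -0.29 and -0.21 in all alternatives.

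MYCL, the L-MYC gene on chromosome 1 of GRCh38 from 39895428 to 39901917, had 7.67 and 6.76 CPM with sgNeg and 10.3 and 12 CPM with sgNPM1A, from 195 and 175 counts and 287 and 332 counts. Both libraries with mtNPM1 KO were above both controls. MYCL rose by 0.63 on the log2 scale (SE 0.14, 95% interval 0.33 to 0.92, adjusted p = 0.00593). Without sgNPM1A replicate 2 its log2 fold change was 0.51 (adjusted p = 0.0557), which ended the call. MYCN, which drives neuroblastoma when amplified, had 1 count in sgNeg library 1 and 0 counts in the other libraries, under the 3 counts told from 0 in both conditions, and no fold is given.

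MAX, on chromosome 14 from 65006101 to 65102695, had 74.0 and 76.7 CPM with sgNeg and 73.2 and 70.4 CPM with sgNPM1A. The libraries were separated by less than 1 CPM at their nearest. The log2 fold change was -0.07 (95% interval -0.23 to 0.09, adjusted p = 0.515), so that a change beyond the fold threshold of 1.25 lay outside the interval.

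The antagonists did not move as a group, and none was called. MXD1, the first of the MXD proteins and one that is induced in myeloid maturation, had 15.4 and 14.6 CPM with sgNeg and 16.6 and 20.0 CPM with sgNPM1A. Both libraries with sgNPM1A were above the controls, the second by more than the first. Its log2 fold change was 0.29 (SE 0.12, 95% interval 0.04 to 0.54, adjusted p = 0.0872), and it was 0.15 (adjusted p = 0.628) without sgNPM1A replicate 2 and 0.42 (adjusted p = 0.0510) without sgNPM1A replicate 1.

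MXI1 had 35.3 and 29.7 CPM with sgNeg and 37.3 and 33.3 CPM with sgNPM1A. The second sgNPM1A library lay between the controls. The log2 fold change was 0.12 (95% interval -0.10 to 0.34, adjusted p = 0.435), and it lay between 0.00 and 0.25 when single libraries were left out.

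MXD4 had 68.0 and 66.1 CPM with sgNeg and 60.4 and 57.0 CPM with sgNPM1A. The groups did not overlap, and the log2 fold change was -0.19 (SE 0.07, 95% interval -0.35 to -0.03, adjusted p = 0.0815). MNT, the antagonist that is expressed in proliferating cells beside MYC, had 36.3 and 30.7 CPM with sgNeg and 26.3 and 29.2 CPM with sgNPM1A. The control libraries differed from each other by more than the nearest libraries of the conditions. The log2 fold change of MNT was -0.27 (SE 0.10, 95% interval -0.50 to -0.05, adjusted p = 0.0742), and single libraries decided it. Without sgNeg replicate 2 the value was -0.39 (adjusted p = 0.0167), which made it a call, whereas without sgNeg replicate 1 it was -0.15 (adjusted p = 0.329) and without sgNPM1A replicate 1 it was -0.20 (adjusted p = 0.404).

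MXD3, an antagonist that has been tied to S phase, had 31 and 32.7 CPM with sgNeg and 30.1 and 29.0 CPM with sgNPM1A, and its log2 fold change was -0.11 (95% interval -0.30 to 0.08, adjusted p = 0.383). The value of MXD3 is less certain than the others, since 24.2% of its annotated exon bases also belong to PRELID1 on the opposite strand and 19.5% to RAB24 on its own strand. PRELID1 had 3252 to 4018 counts against 788 to 847 counts of MXD3, and whether reads were counted by strand is not given in the sources used here. MLX, which shares 18.2% of its exon bases with PSMC3IP, had 92.8 and 89.1 CPM with sgNeg and 84.3 and 86.4 CPM with sgNPM1A, and its log2 fold change was -0.09 (95% interval -0.24 to 0.06, adjusted p = 0.369).

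**Figure D2:**
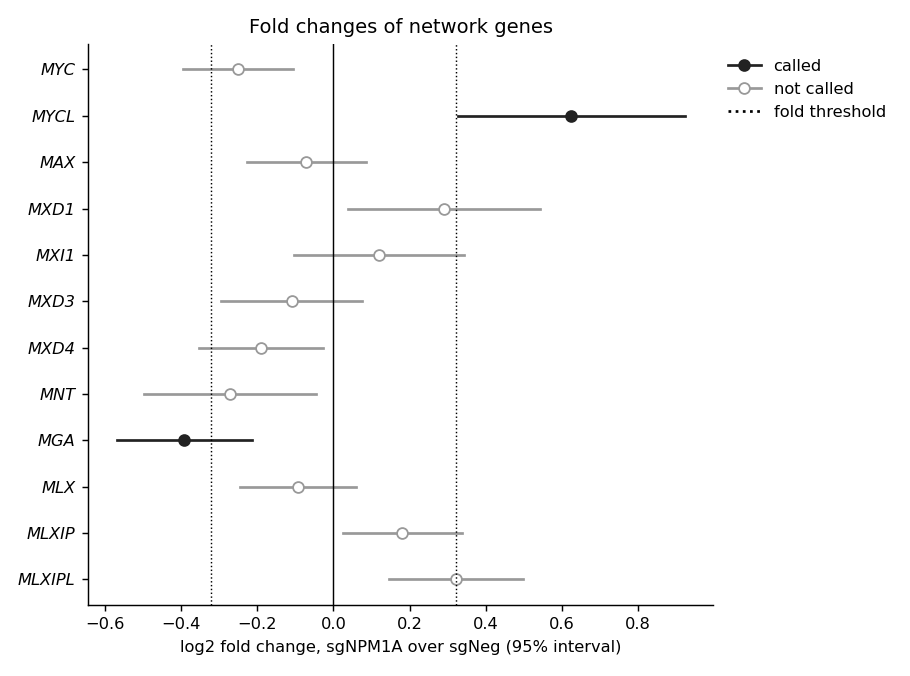
Log2 fold changes of sgNPM1A over sgNeg with their 95% intervals for the 9 tested members and for MGA, MLXIP and MLXIPL, filled points marking called genes and dotted lines the fold threshold. MYCL at 0.63 and MGA at -0.39 are the called genes, and the point of MLXIPL lies on the threshold.

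Promoter sequences were examined for the motif that the network binds. The windows are RefSeq's on GRCh38.p14 and run from 250 bases before to 50 bases after a start, and 12 windows matched 9 of the members, MYC not among them. The motif CACGTG, which reads the same on both strands, was present in 3 of these 12 windows, in 7.26% of all 35116 windows and in 9.44% of the windows of tested genes. The windows with the motif were those of the antagonists MXD4 and MNT and of MLX. They are shown, with that of MYCL as the called member, as the 250 bases before the start, 5′ to 3′ on the gene's strand, with the motif in capitals. MXD4 is at chr4:2262110-2262359 on the minus strand, MNT at chr17:2401061-2401310 on the minus strand, MLX at chr17:42566850-42567099 on the plus strand and MYCL at chr1:39901918-39902167 on the minus strand.
MXD4: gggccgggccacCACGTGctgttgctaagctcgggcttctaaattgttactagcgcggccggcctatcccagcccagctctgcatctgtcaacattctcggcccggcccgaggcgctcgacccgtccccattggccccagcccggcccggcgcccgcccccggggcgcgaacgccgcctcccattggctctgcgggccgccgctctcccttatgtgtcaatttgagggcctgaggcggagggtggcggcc
MNT: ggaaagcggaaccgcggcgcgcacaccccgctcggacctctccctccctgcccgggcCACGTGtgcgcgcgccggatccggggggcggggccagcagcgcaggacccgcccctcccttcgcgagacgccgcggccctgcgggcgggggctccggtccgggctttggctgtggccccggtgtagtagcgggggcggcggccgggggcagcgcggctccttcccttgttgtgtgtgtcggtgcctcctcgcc
MLX: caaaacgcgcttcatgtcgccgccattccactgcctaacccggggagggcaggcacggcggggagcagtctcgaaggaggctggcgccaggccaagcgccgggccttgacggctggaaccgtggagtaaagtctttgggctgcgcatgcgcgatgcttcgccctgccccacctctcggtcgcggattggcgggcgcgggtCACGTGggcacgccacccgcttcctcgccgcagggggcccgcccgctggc
MYCL: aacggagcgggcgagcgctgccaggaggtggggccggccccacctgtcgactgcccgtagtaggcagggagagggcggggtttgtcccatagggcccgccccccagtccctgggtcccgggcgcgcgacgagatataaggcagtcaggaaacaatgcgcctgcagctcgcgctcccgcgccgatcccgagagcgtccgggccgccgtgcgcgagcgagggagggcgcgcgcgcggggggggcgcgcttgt
The motif began 238 bases before the start in MXD4, 193 bases in MNT and 50 bases in MLX. The log2 fold changes of these 3 genes were -0.19, -0.27 and -0.09, and none was called. A match describes letters in a window and not a bound site, and only the motif as spelled out was searched.

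Levels were compared between genes per kilobase of the canonical transcript. In the sgNeg libraries MYC led with 109.4 ± 1.34 CPM per kilobase (SD, n = 2), followed by MLX with 38.5 ± 1.12, MAX with 37.5 ± 0.944, MXD3 with 29.9 ± 1.13 and MXD4 with 17.3 ± 0.350 CPM per kilobase. MXI1 had 9.37 ± 1.13, MNT 6.80 ± 0.806, MXD1 2.70 ± 0.100 and MYCL 2.05 ± 0.184 CPM per kilobase (SD, n = 2 each). MLX and MAX, neighbours in this order, overlapped, and no other neighbours did. With sgNPM1A the order of the means was the same, with MYC at 91.9 ± 3.76 and MAX at 35.7 ± 0.977 CPM per kilobase. MYCL at 3.16 ± 0.333 and MXD1 at 3.30 ± 0.430 CPM per kilobase then overlapped. The order of MXD3 and MXD4 depends on the length used, since MXD4 was above MXD3 when all annotated exons were taken as the length (9.75 against 6.72 CPM per kilobase with sgNeg).

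**Figure D3:**
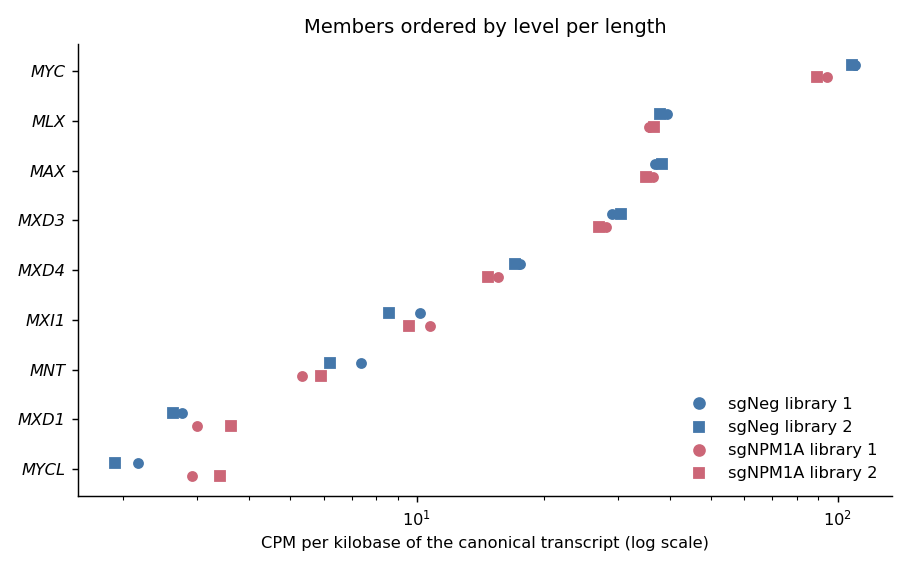
Level of the 9 tested members in each library, as CPM per kilobase of the canonical transcript on a log axis, ordered by the mean of the sgNeg libraries. MYC stands alone at the top at 109.4 with sgNeg and 91.9 with sgNPM1A, MLX and MAX overlap, and MYCL and MXD1 lie at the bottom and overlap with sgNPM1A.

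MYC made up a smaller share of the MAX partners in both sgNPM1A libraries than in either control. Per kilobase of canonical transcript, MYC made up 61.5% and 61.8% of the summed level of the MYC proteins and their antagonists in the sgNeg libraries and 59.0% and 58.1% in the sgNPM1A libraries. MYC was 3.0 and 2.84 times MAX with sgNeg and 2.60 and 2.55 times MAX with sgNPM1A. Against the 5 antagonists summed, MYC was at 1.65 and 1.66 times with sgNeg and 1.5 and 1.46 times with sgNPM1A. On the log2 scale this ratio changed by -0.16, with a pooled SD of 0.02 between libraries of a condition, and by -0.18 with all exons as the length. Per kilobase of canonical transcript MXD3, whose value is less certain, was the largest antagonist in the sum and MXD4 the next. The changes against MXD3 and MXD4 singly, given below, remained uncertain, and the change against the sum shares that limit. The levels depend on the length used. With all exons, MYC made up 68.7% and 69.7% of the partners with sgNeg and 66.4% and 65.2% with sgNPM1A. It was then 5.68 and 5.39 times MAX with sgNeg and 4.93 and 4.83 times MAX with sgNPM1A. Against the summed antagonists it was 2.32 and 2.41 times with sgNeg and 2.13 and 2.05 times with sgNPM1A. These are ratios of RNA and not of protein or of dimers, and no test was made of them.

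The ratio did not move alike for every antagonist. The log2 ratio of MYC to MXD1 was 4.73 and 4.78 with sgNeg and 4.4 and 4.05 with sgNPM1A, a change of -0.54 (pooled SD 0.18). For MXI1 the change was -0.37 (pooled SD 0.12), for MXD3 -0.14 (pooled SD 0.05) and for MXD4 -0.06 (pooled SD 0.0081). For MNT the ratio changed by 0.02 (pooled SD 0.16), the libraries of the conditions overlapped, and the sign turned when single libraries were left out (-0.10 to 0.13). Relative to MXD1, MXI1, MXD3 and MXD4, MYC was thus lower in both sgNPM1A libraries, with the larger changes against MXD1 and MXI1. A pooled SD from so few libraries is itself uncertain. The change against MXD4 was smaller than the SE of the fitted log2 fold change of MYC (0.066) or of MXD4 (0.074). For MXD3 the intervals of these fitted values overlapped (MYC -0.40 to -0.11, MXD3 -0.30 to 0.08). These fitted values are for each gene alone and do not test a ratio read within a library. The log2 ratio to MXD4 was 2.593 and 2.609 with sgNeg and 2.541 and 2.540 with sgNPM1A. Whether the ratios to MXD3, MXD4 and MNT changed was not tested and remained uncertain.

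**Figure D4:**
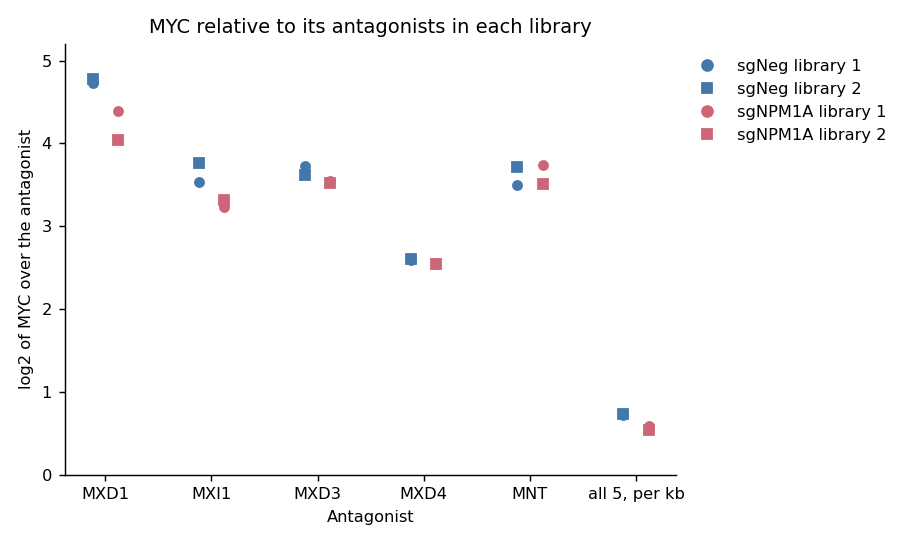
Log2 ratio of MYC to each antagonist in each library, from CPM with a prior count of 2, and at the right to the sum of the 5 antagonists per kilobase. The sgNPM1A libraries lie below the sgNeg libraries for MXD1, MXI1, MXD3, MXD4 and the sum, and the conditions overlap for MNT.

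The remaining partners of MAX and MLX, and the cofactors, were taken from lists of known components. MGA, which binds MAX in a repressive complex on E2F and germline genes, had 59.8 and 55.0 CPM with sgNeg and 45.0 and 42.5 CPM with sgNPM1A. It fell by 0.39 on the log2 scale (SE 0.08, 95% interval -0.57 to -0.21, adjusted p = 0.00434). MLXIPL (ChREBP) had 105 and 119 CPM with sgNeg and 146 and 133 CPM with sgNPM1A, and its 1.249-fold level (adjusted p = 0.0125) lay just under the threshold. MLXIP (MondoA) had 95.9 and 98.3 CPM with sgNeg and 115 and 106 CPM with sgNPM1A, and its log2 fold change was 0.18 (adjusted p = 0.0847). Both glucose-sensing partners of MLX were higher in both sgNPM1A libraries than in either control, and neither was called.

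TXNIP and KLF10, the 2 tested genes among the 4 listed targets of MLX, went opposite ways. TXNIP, an inhibitor of glucose uptake, had 117 and 103 CPM with sgNeg and 83.4 and 87.0 CPM with sgNPM1A and fell to 0.776-fold (adjusted p = 0.00570). KLF10 had 30.3 and 32.2 CPM with sgNeg and 38.9 and 41.6 CPM with sgNPM1A and rose by 0.37 (adjusted p = 0.00831). ARRDC4 and PKLR had at most 3 counts in any library.

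Of the 36 tested network cofactors, 1 was called higher and 3 lower, 11.1% beside the 20.8% of all tested genes, with a median log2 fold change of -0.04. Only 1 was lower without sgNeg replicate 1, without sgNPM1A replicate 1 or without sgNPM1A replicate 2. Among the 9 coactivators HCFC1, a MYC-binding subunit of chromatin complexes, went from 324 and 290.4 CPM to 239 and 248 CPM and fell by 0.33 (adjusted p = 0.00542). TRRAP, the scaffold of histone acetyltransferase complexes, had a log2 fold change of -0.07 and WDR5 of 0.04, neither of them called. None of the 9 corepressors of the antagonists was called by edgeR, DESeq2 or limma-trend, and 0 had an unadjusted p under 0.05, SIN3A having a log2 fold change of -0.17 and HDAC1 of -0.04. Of the 15 genes that act on the stability of the MYC protein, AURKA, a kinase that shields MYCN from degradation, rose by 0.33 (1.256-fold, adjusted p = 0.0116), and TRIM32, a ubiquitin ligase, fell by 0.37 (adjusted p = 0.0165). FBXW7, the ubiquitin ligase that reads phosphorylated MYC, had 19.0 and 16.7 CPM with sgNeg and 16.3 and 15.2 CPM with sgNPM1A (log2 fold change -0.18, adjusted p = 0.266) and was not called.

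PVT1, the long noncoding RNA gene beside MYC, had 14.2 and 16.1 CPM with sgNeg and 19.0 and 17.8 CPM with sgNPM1A. Its log2 fold change of 0.28 (95% interval 0.05 to 0.52, adjusted p = 0.0775) had the sign opposite to that of MYC and was not called. The other matched RNAs beside member loci, among them CASC11 and MYCL-AS1, had at most 4 counts in any library.

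Genes known as activated by MYC did not move one way. Of 62 tested genes of this list, 5 were called higher and 4 lower, 14.5% against the 20.8% of all tested genes, and the median log2 fold change was -0.06. Called or not, 37 had negative and 25 positive values, beside 7854 negative and 7864 positive among all tested genes. Without sgNPM1A replicate 2 only 2 were higher, and without sgNeg replicate 2 7 were lower. The 23 tested nucleolar and ribosome assembly genes had 0 calls by edgeR, DESeq2 or limma-trend and a median of -0.08, and in edgeR 1 gene was higher and 6 were lower at p under 0.05 without adjustment. NCL, the nucleolin gene, had 1817 and 1626 CPM with sgNeg and 1597 and 1577 CPM with sgNPM1A (log2 fold change -0.12, adjusted p = 0.280). At an adjusted p under 0.05 alone, BYSL and TCOF1 of these genes were lower and WDR12 was higher.

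Of the 24 metabolic genes, 3 were called higher and 2 lower, 20.8% of them and the same share as among all tested genes. PKM, the pyruvate kinase of glycolysis, rose from 1941 and 1884 CPM to 2441 and 2560.2 CPM (log2 fold change 0.39, adjusted p = 0.00169). LDHA, lactate dehydrogenase, rose from 1110 and 1001 CPM to 1286 and 1354 CPM, 1.251-fold (adjusted p = 0.00826), just past the threshold. The nucleotide synthesis gene PRPS2 rose by 0.35 (adjusted p = 0.0120). A pair of transporters fell, SLC1A5 for glutamine from 273 and 286 CPM to 216 and 203 CPM (log2 fold change -0.41, adjusted p = 0.000862) and SLC2A1 for glucose from 92.8 and 73.9 CPM to 62.1 and 63.5 CPM (log2 fold change -0.41, adjusted p = 0.0109). The other listed transporters were not called, among them SLC7A5 with a log2 fold change of -0.08.

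Of the 15 tested cell cycle genes, 2 were called in each direction, 26.7% of them beside 20.8% of all tested genes. CUL1, the scaffold of SCF ubiquitin ligases, had 72.1 and 72.2 CPM with sgNeg and 144 and 161 CPM with sgNPM1A and rose 2.12-fold (adjusted p = 1.85e-06), the largest rise among the activated genes. CKS2, a cofactor of cyclin-dependent kinases, rose by 0.50 (adjusted p = 0.000726). CDK6, a kinase that drives entry into S phase, went from 389 and 369 CPM to 217 and 212 CPM and fell to 0.567-fold (adjusted p = 4.93e-06). E2F1 fell by 0.32 (adjusted p = 0.0101), and the helicase subunits MCM5 and MCM7, each with a log2 fold change of -0.26, stayed under the fold threshold.

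Genes known as repressed by MYC held calls in both directions, mostly higher. Of 16 tested, 6 were called higher and 2 lower, while 20.8% of all tested genes were called, and the median log2 fold change was 0.26. The list was written with earlier results of these data known, so this share may reflect the choice of genes. Without sgNeg replicate 1 or without sgNPM1A replicate 1 only 1 was lower. CDKN1A, the p21 inhibitor of cyclin-dependent kinases, had 64.1 and 61.9 CPM with sgNeg and 120.3 and 129 CPM with sgNPM1A and rose 1.98-fold (adjusted p = 2.81e-06). KLF4, a factor of monocyte maturation, rose from 12.3 and 11.9 CPM to 20.3 and 25 CPM (log2 fold change 0.91, adjusted p = 0.000224). The antiproliferative genes BTG1 and BTG2 rose by 0.63 (adjusted p = 0.000143) and 0.53 (adjusted p = 0.00229), and GADD45A and NDRG2 were the other called rises. CDKN1B, the p27 inhibitor, went the other way, from 66.1 and 59.6 CPM to 41.4 and 43.0 CPM, and fell by 0.57 (adjusted p = 0.000379), as did TXNIP. Several of these genes are also targets of p53 or of myeloid maturation, and no test separated those inputs.

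**Figure D5:**
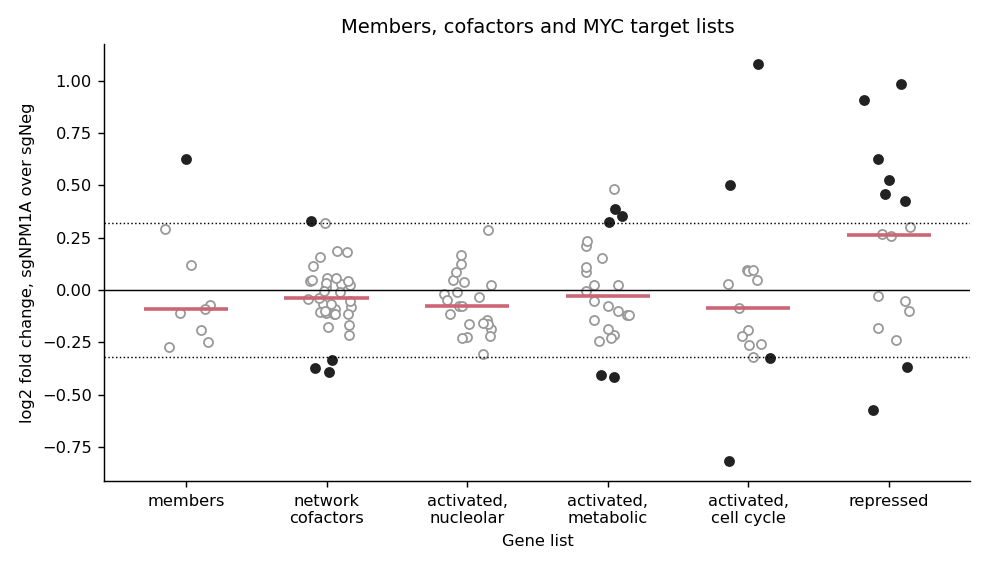
Log2 fold changes of the members, the network cofactors and the MYC target lists, 1 point per tested gene, filled where called, with red bars at the list medians and dotted lines at the fold threshold. The medians of the members, cofactors and activated lists lie between -0.09 and -0.03, and that of the repressed list at 0.26.

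Promoters of the activated genes, as a list of known MYC targets, often held the E-box. It was present in 34.7% of their 72 windows, against 7.26% of all windows and 9.44% of the windows of tested genes. The nucleolar genes held it in 47.8% of their windows and the repressed genes in 3 of 18 windows. The sites of the called genes CDK6, SLC1A5, LDHA and KLF4 are shown, each with 12 bases on either side of the motif in capitals, 5′ to 3′ on the gene's strand. CDK6 is at chr7:92836526-92836555 (minus strand), SLC1A5 at chr19:46787326-46787355 (minus strand), KLF4 at chr9:107489909-107489938 (minus strand) and LDHA, with a pair of sites, at chr11:18394366-18394395 and chr11:18394464-18394493 (plus strand), on GRCh38.p14.
CDK6: cgaggccgcggaCACGTGcggagagccgac
SLC1A5: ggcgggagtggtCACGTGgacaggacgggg
KLF4: ctcccccgccccCACGTGcgccgagtttgt
LDHA: agactcccagcgCACGTGgagcagtctgcc
LDHA: cagcccgactcaCACGTGggttcccgcacg
CDK6 and SLC1A5 fell and LDHA and KLF4 rose, all with the motif in the window. Of 25 tested activated genes with the motif 1 was called higher and 2 lower (median log2 fold change -0.10), and of 26 without it 4 were higher and 2 lower (median -0.04). Among all tested genes the median was -0.01 with the motif and 0.00 without it.

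Markers of myeloid maturation moved with the condition in which the network was read. Of 14 tested maturation genes, 10 were called higher and 1 lower, where 10.5% and 10.3% of all tested genes were, and their summed level went from 870 and 896 CPM with sgNeg to 1582 and 1732 CPM with sgNPM1A. S100A9, a calcium-binding protein of granulocytes and monocytes, rose from 61.7 and 73.8 CPM to 409.7 and 482 CPM. S100A8 rose from 26.3 and 32.3 CPM to 164 and 183 CPM. CYBB was the gene called lower, from 309 and 278 CPM to 223 and 240 CPM. LYZ, lysozyme, which was not among the 14, rose from 271 and 215 CPM to 2643 and 3367 CPM. HOXA9 and MEIS1, regulators of leukemic self-renewal, fell by 1.69 and 2.46 on the log2 scale. Of the 8 tested granule and precursor genes 7 were called higher, against the same 10.5%, PRTN3 by 2.21. The fibroblast collagen gene COL1A2, of the 2 tested markers of other lineages, fell by 1.33 from 27.5 and 28.6 CPM to 13 and 9.33 CPM, and the summed level of the 11 listed markers of other lineages went from 29.6 and 30.3 CPM to 14.2 and 11.0 CPM. The marker lists were also written with earlier results of these data known, so their shares of calls may reflect the choice of genes. The part of the marker shifts in the values of MYC, MYCL and the antagonists was not tested.

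The genes whose pattern was most like that of MYC were found among the 10180 tested genes that averaged 5 CPM or more, by the Euclidean distance between log2 CPM centred over the 4 libraries. GTF2I was nearest (distance 0.0100 on the log2 scale), followed by FEN1 (0.0146) and GTF2F1 (0.0174). GTF2I had 43.8 and 42.8 CPM with sgNeg and 37.7 and 35.4 CPM with sgNPM1A, and it has near-identical copies in the genome, so its counts are uncertain. FEN1, a nuclease of DNA replication, had 210.4 and 209 CPM with sgNeg and 181 and 172 CPM with sgNPM1A. Over 4 libraries such likeness is common, and 2316 of the 10180 genes lay within a distance of 0.2.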

How the data were processed

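RNA-Seq was made from OCI-AML3 cells with sgNeg or sgNPM1A, 2 libraries each. The authors mapped read pairs to hg38 with STAR and Samtools and deposited raw counts per Ensembl gene, without normalization. The counting program, strand setting and annotation release are not given in the sources used here. The paper mentions ERCC spike-ins, and 0 rows of the table carry such a name.

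The members and lists were chosen with earlier results of these data known. Ensembl identifiers gave a symbol for 55646 of 58037 genes, and the lists matched apart from CCAT1, MXD1-DT, MXI1-AS1 and BOP1. Counts were tested with edgeR 4.0.16 in R 4.3.3: filterByExpr by group (minimum count 10), TMM, robust dispersions and the two-sided quasi-likelihood F test. The call needed a fold of at least 1.25 and an adjusted p (Benjamini-Hochberg) under 0.05. Log2 ratios in single libraries used a prior count of 2. Transcript lengths and exon overlaps came from a GRCh37 annotation, positions and promoters from RefSeq on GRCh38.p14. Depth was 25069484 to 28276391 counts, and the libraries of a condition differed by more than sampling noise (chi-square per degree of freedom 8.99 with sgNeg and 4.17 with sgNPM1A).

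Alternatives were DESeq2 1.42.0, limma-trend (limma 3.58.1) on quantile-normalized log2 CPM, upper quartile, RLE factors, library size only, at least 10 counts in every library, no filter, unadjusted p-values, the replicate block, a fold of at least 2, no fold threshold, a prior count of 0.5 and leaving out each library. The crossed replicate block and all exons as the length were added after the data were examined. The test was checked on simulated counts. Names were drawn from the members, lists of up to 10 genes, of which any gene could be named, in longer lists up to 4 called genes per direction with the smallest adjusted p and up to 4 others with the highest mean, the 3 genes nearest to MYC, and NPM1. FBXW7, GADD45A, NDRG2, BYSL, TCOF1, WDR12 and the markers of other lineages at 0 counts fall outside this and were picked with their values in view.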

Additional observations from a re-analysis of the deposited data

How the results depend on the processing

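No tested result changed direction in any alternative run, and the untested ratio of MYC to MNT, near 0, did. Of 144 member fold changes under alternatives, 140 kept their direction and their call, which needs both thresholds. This share overstates how far the results were tried. With no fold threshold, a fold of at least 2 or unadjusted p-values, the fold changes were those of the main fit. Their direction could not change there. In the main fit only MYCL lay past the fold threshold, so most kept calls were absences of a call that the fold size alone decided. The adjusted p alone crossed 0.05 more often: for MYC with the replicate block and without either sgNPM1A library (0.0716 to 0.303), for MYCL without sgNPM1A replicate 2 (0.0557), for MXD4 with library size only (0.0395), for MNT with library size only (0.0437), no filter (0.0271) and without sgNeg replicate 2 (0.0167), and for MXD1, MXD4 and MNT with the crossed replicate block. With no fold threshold MYC was called (log2 fold change -0.25), 1 member was lower, 8 activated targets were higher and 9 lower, and 2 cofactors were higher. At a fold of at least 2, 0 members were higher, activated targets came to 1 higher and 0 lower, and repressed targets and cofactors to 0 in each direction. Activated targets called higher were 3 with limma-trend on quantile-normalized log2 CPM and 3 with library size only. Cofactors called higher were 0 with library size only and 0 with upper quartile, and 2 with at least 10 counts in every library. With the replicate block they were 2. Over all tested genes, a fold of at least 2 left 498 called higher and 502 lower. Apart from the fits without 1 library, given next, no other count of calls moved by over 1.5 times. The change of MYC against its summed antagonists was -0.18 with all exons as the length.

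Leaving out 1 library at a time gave 0 to 1 members higher and 0 to 1 lower, 2 to 5 activated targets higher and 3 to 7 lower, 4 to 6 repressed targets higher and 1 to 2 lower, and 1 to 3 cofactors lower. The member lost was MYCL without sgNPM1A replicate 2, and the member gained was MNT without sgNeg replicate 2. In these fits the lone library is assumed to vary like those of the other condition.

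The labels' numbers are not stated to pair the libraries. Deviations of same-numbered libraries correlated at -0.130 over all tested genes and at -0.523 over the 8856 genes with a mean above 10 CPM, and the crossed replicate block, chosen after this was seen, called 1 member higher and 0 lower. The cause of these shifts was not tested. MYCN, with 1 count in all, was too low to be tested.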
